A study of Mus musculus with 9 samples.

Results

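The 343 genes described here lie on mouse chromosome 14 and were taken from 23366 gene entries counted by RNA-seq. They were chosen by position and level: every entry placed wholly on chromosome 14 of the mm9 build with a mean of at least 5 CPM (counts divided by the library's total, scaled to a common size) over 9 libraries, in order of start. Of 843 chromosome 14 entries, 491 were under that mean and 9 of 352 above it belong to a set of 12 genes set aside by name. The chromosome itself was selected on its shifts in expression along 4 passages. The reason was windows lower at passage 10 (P10) than at P2, P4 and P25, which numbered 9 of 17 by the limit used below. The values of that contrast are therefore given as a description, with no test.

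The study examined mSGc, a spontaneously immortalized epithelial line grown from submandibular glands of 12-week-old male C57BL/6 mice. Monolayers were sequenced at P2 and P4 in serum-free medium (SFM), and at P10 and P25 in both SFM and serum-containing medium (SCM), with 1 library per condition, named below by passage and medium. The labels name the media for progenitor and differentiating cells, and these were taken as SFM and SCM. The comparison line, immortalized mouse oral keratinocytes (IMOK) of C57BL/6 background in their own medium, had 3 libraries. Early mSGc (P2 and P4), mid mSGc (both P10 libraries) and late mSGc (both P25 libraries) formed groups of 2 libraries that differ in passage or medium. The line came from pooled gland cells of unstated clonality, and nothing states that libraries of a group came from separate cultures, so p-values measure only the spread between these libraries.

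Mouse chromosomes have their centromere at one end, so gene order here runs from the proximal (centromeric) to the distal (telomeric) end. Cultured lines often gain or lose whole chromosomes or parts of them during passage, and expression of the genes on such a stretch tends to move with its copy number. Groups of neighbouring genes can also change together through shared regulation, and RNA levels alone do not separate these. In bulk libraries, fewer cells that express a gene and less RNA per cell cannot be told apart.

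Total counts per library ran from 6237884 (P25 SCM) to 18444963 (IMOK replicate 1). The chromosome 14 genes held 2.85% of counts at P2, 2.68% at P4, 2.2% at P10 SFM, 2.45% at P10 SCM, 2.78% at P25 SFM and 2.96% at P25 SCM. Both P10 libraries thus had the lowest shares among mSGc. In IMOK the shares were 2.31%, 1.90% and 1.86%. The median gene had from 249 counts (P10 SFM) to 683 counts (IMOK replicate 1), and 2 of the 343 genes had a count of 0 in at least 1 library. A gene with no count may have a level of up to 3 counts, or 0.163 to 0.481 CPM by library, for counting error only.

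All 7 epithelial marker genes (Krt5, Krt14, Trp63, Epcam, Cdh1, Krt8 and Krt18) reached 1 TPM (counts per gene length, scaled to a common library size) in all 9 libraries. Their summed level was 20881 TPM at P2, 24097 at P4, 16111 and 18177 at P10 SFM and SCM, and 21099 and 13135 at P25. Summed fibroblast markers (8 genes) stood at 23.1 TPM at P2, led by Col1a2 at 9.88 TPM, and between 0.320 and 4.48 TPM in the other mSGc libraries. Endothelial markers (4 genes) summed to at most 0.945 TPM in mSGc, and leukocyte markers (5 genes) to between 1.88 and 4.15 TPM, nearly all from Cd68. The sum hides changes within it: Krt8 and Krt18 were at 6326 and 4548 TPM at P2 and at 672 and 738 TPM at P10 SFM. In IMOK replicates 1 to 3 the epithelial markers summed to 11719, 10540 and 10068 TPM, and Cd68 was at 33.4, 8.74 and 4.58 TPM. All libraries thus had the epithelial markers of their label, at levels that varied. IMOK replicate 1 stood apart from the other IMOK libraries: counts of replicates 2 and 3 differed by a chi-square of 21.3 per degree of freedom, and those of replicate 1 by 149.6 and 179.7.

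For each library the shift of chromosome 14 was the median, over its 343 genes, of the difference from P2 in log2(CPM + 1), minus the same median over 9845 other autosomal genes that passed the same mean of 5 CPM. The shift was -0.08 at P4, -0.56 at P10 SFM, -0.33 at P10 SCM, -0.03 at P25 SFM and 0.05 at P25 SCM. As ratios these were 0.949, 0.679, 0.793, 0.977 and 1.03 of the P2 level. Chromosome 14 was thus lower in both P10 libraries, more so in SFM, and near its P2 level before and after. After the median of the other autosomal genes was subtracted, the difference from P2 was negative for 288 of the 343 genes at P10 SFM and 260 at P10 SCM, against 189 at P4, 182 at P25 SFM and 155 at P25 SCM. By construction it is negative for 4922 of the 9845 other autosomal genes in each of these libraries. Among the other 18 autosomes the lowest P10 shifts were -0.07 in SFM (chromosome 5) and -0.14 in SCM (chromosome 18), and the highest were 0.35 (chromosome 10) and 0.38 (chromosome 8). None of those 18 chromosomes was as low as chromosome 14 in either P10 library. Other chromosomes were shifted in other ways: chromosome 18 was at -0.54 at P25 SFM and -0.39 at P25 SCM, and chromosome 10 was higher at P10, at 0.35 in SFM and 0.28 in SCM, beside 0.00 at P4, -0.07 at P25 SFM and -0.01 at P25 SCM.

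The P10 difference of a gene, used below, is the mean log2(CPM + 1) of both P10 libraries minus that of the other 4 mSGc libraries, relative to the median of the other autosomal genes. Its median over the 343 genes was -0.41, with 268 genes negative. Both P10 libraries lay below all of the other 4 mSGc libraries for 135 of the 343 genes, where 9.56% of the 10518 genes that pass 5 CPM genome-wide did so. Both lay above for 16 genes, where 14.7% of the 10518 did so. On the other autosomes the share of genes below ran from 1.81% (chromosome 10) to 13.6% (chromosome 19). Since the rule used this contrast, these counts only describe what was chosen. The count above all others varied with the libraries used: it was 25 without P2, 44 without P10 SFM, 28 without P10 SCM and 26 without P25 SCM, where 23.2%, 27.2%, 27.0% and 20.4% of all genes were above under the same omissions. P10 SFM was the lowest of the 6 mSGc libraries for 163 genes and P10 SCM for 58, and P25 SCM was the highest for 104. These were 47.5%, 16.9% and 30.3% of the 343, where 18.7%, 11.4% and 17.6% of all genes were so placed.

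The genes were divided in order into 17 windows of 20, the last holding 23. The first 3 windows, from Gm3002 to Il17rd (chr14:3920624-27920472), had P10 shifts of -0.05, -0.14 and -0.07 in SFM and of 0.09, -0.07 and -0.13 in SCM. No shift in them passed -0.2 at P10. The third window, from Vcl to Il17rd, was instead lower at P4 (-0.23), P25 SFM (-0.28) and P25 SCM (-0.20). The fourth window, from Arhgef3 to Phf7 (chr14:28051225-32064404), stood at -0.64 in SFM and -0.38 in SCM at P10, with -0.06 at P4, 0.01 at P25 SFM and 0.18 at P25 SCM. From that window on, every window was below -0.2 at P10 SFM.

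A window was counted as lower in P10 alone when both P10 shifts were at or under -0.2 and those of P4 and both P25 libraries were above it. This held for 9 of 17 windows. In those 9 the P10 shifts ran from -0.80 to -0.58 in SFM and from -0.58 to -0.34 in SCM, while P4 ran from -0.19 to 0.08, P25 SFM from -0.12 to 0.14 and P25 SCM from -0.16 to 0.24. The 5 other windows distal to Il17rd missed the count for different reasons. The sixth window (Sncg to Samd4) stood at -0.56 and -0.50 at P10, and also at -0.25 at P4 and -0.21 at P25 SFM. The seventh (Wdhd1 to Rnase4) was at -0.69 at P10 SFM and at -0.195 in SCM, just above the limit. The thirteenth (Esco2 to Pdlim2) was at -0.72 and -0.43 at P10 but at -0.27 at P25 SFM, and the fourteenth (Sorbs3 to Esd) at -0.61 and -0.37 at P10 but at -0.25 at P4. The twelfth (Spryd7 to Pbk) was at -0.25 at P10 SFM and at -0.03 in SCM, the weakest of the 14 distal windows.

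That twelfth window (chr14:62153142-66436659) was mixed rather than uniformly weak. Its P10 difference had a lower quartile of -0.81 and an upper quartile of 0.20, and both P10 libraries lay below all other mSGc libraries for 8 of its 20 genes and above for 2. Of all genes 9.56% lay below and 14.7% above. The window held Fam167a, the gene with the lowest P10 difference of all 343 (-2.87), and Scara5, a scavenger receptor for ferritin, the one with the highest (1.55). Scara5 stood at 22.0 TPM at P10 SFM but at 3.19 TPM at P10 SCM, beside 2.13 at P2, 1.65 at P4, 2.0 at P25 SFM and 5.01 at P25 SCM. Its high value thus came from 1 library. Fdft1, the squalene synthase of cholesterol synthesis and the most abundant gene of the window, was at 98.2 and 112 TPM at P10 SFM and SCM, against 125 at P2, 243 at P4, 187 at P25 SFM and 185 at P25 SCM. Both of its P10 values were under the other 4.

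The eighth window, from Mettl17 to Haus4 (chr14:52504517-55173198), had the lowest mean P10 shift of the 17 (-0.80 in SFM and -0.48 in SCM). Its 5 lowest genes by P10 difference were Haus4, a subunit of the augmin complex of the mitotic spindle (-1.55), Dad1, a subunit of the oligosaccharyltransferase (-1.09), Prmt5, an arginine methyltransferase (-1.06), Mettl17, a factor of mitochondrial ribosomes (-0.87), and the transcription factor Sall2 (-0.77). Prmt5 was at 49.0 TPM at P10 SFM and 54.0 in SCM, against 80.2 at P2, 116 at P4, 102 at P25 SFM and 99.7 at P25 SCM. Dad1 was at 21.1 and 28.3 TPM at P10, against 50.5, 52.8, 50.9 and 39.9 TPM at P2, P4, P25 SFM and P25 SCM. For each of these 5 genes both P10 libraries lay below the other mSGc libraries. The most abundant gene of the window, Hnrnpc, a nuclear RNA-binding protein, was at 211 and 208 TPM at P10, where the other mSGc libraries ranged from 264 to 328 TPM.

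A least-squares split of the 343 ordered genes into a proximal and a distal stretch, with at least 10 genes in each, was placed after the values were seen and carries no test. For the P10 difference it fell after 62 genes, between D14Abb1e (chr14:28242033-28296740) and Ccdc66 (chr14:28295596-28321646), whose entries overlap at their ends. With P10 SCM alone the split was the same, and with P10 SFM alone it fell 1 gene further, between Ccdc66 and Selk (chr14:30781566-30788260). Between Ccdc66 and Selk lie 2459919 bases with no member, so a split there has no finer position. No interval was computed for the split, so its position is not resolved to a single gene. The mean P10 difference was 0.08 over the 62 proximal genes and -0.49 over the 281 distal genes.

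The genes beside the split follow. Proximal to it, Il17rd, a regulator of receptor signalling, had a P10 difference of 0.79, Arhgef3 of -0.07 and D14Abb1e of 0.36. Distal to it, Ccdc66 had -0.28, Selk, a selenoprotein of the endoplasmic reticulum, -0.83 and Actr8, a subunit of the INO80 chromatin remodeler, -0.65. Il17rd is a gene of low level and its value came from 1 P10 library: it was at 0.767 TPM at P10 SFM and 3.67 in SCM, against 3.26 at P2, 0.799 at P4, 0.286 at P25 SFM and 0.426 at P25 SCM. Arhgef3 was at 13.3 and 13.8 TPM at P10, against 62, 12.8, 8.04 and 4.26 TPM in the same order. D14Abb1e was at 16.7 and 19.4 TPM at P10 SFM and SCM, against 15.6 at P2, 9.29 at P4, 11 at P25 SFM and 16.7 at P25 SCM. Selk was at 75.8 and 99.4 TPM at P10, against 157, 132, 138 and 146 TPM in the same order. Actr8 was at 19.3 and 22.4 TPM at P10, against 27.7, 30.5, 32.2 and 30.8 TPM. Both P10 values of Ccdc66, Selk and Actr8 were under the other 4, by little for Ccdc66, which was at 11.3 and 11.4 TPM against 12.0 to 14.8 TPM. Reads of Ccdc66 and D14Abb1e may be shared where their entries overlap. These neighbours were chosen after their values were seen.

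Against P2 the proximal stretch was shifted by -0.18 at P4, -0.10 at P10 SFM, -0.01 at P10 SCM, -0.15 at P25 SFM and -0.06 at P25 SCM. The distal stretch was shifted by -0.02, -0.64, -0.39, -0.02 and 0.07, which are ratios of 0.988, 0.640, 0.761, 0.989 and 1.05. Among mSGc libraries the lower level of the distal stretch was thus found at P10 only, while the IMOK libraries, given below, were also under P2. Most distal genes took part at P10. The difference from P2, relative to the other autosomal genes, was negative for 252 of 281 at P10 SFM and 228 at P10 SCM, beside the 4922 of 9845 given above. From P10 to P25 within a medium the distal stretch differed by 0.61 in SFM and 0.40 in SCM, and the proximal stretch by 0.00 and -0.06. Distal genes made up 2.1% of all counts at P2, 1.96% at P4, 1.48% and 1.74% at P10, and 2.09% and 2.28% at P25. Proximal genes made up between 0.685% and 0.750% in all 6 mSGc libraries.

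Among distal genes the P10 difference had a median of -0.49, an interval of -1.04 to 0.04 between the 10th and 90th percentile, and was negative for 238 of 281. The other autosomal genes ran from -0.55 to 0.63 over the same percentiles. The spread within the distal stretch was therefore about as wide as elsewhere, around a lower centre. Both P10 libraries were below the other 4 for 128 distal genes (45.6%) and 7 proximal genes (11.3%). They were above for 4 distal (1.42%) and 12 proximal genes (19.4%). Over all genes 9.56% were below and 14.7% above, so the proximal shares lay nearer to these than the distal ones did. The split was placed on the same P10 values, so these counts only describe it. Divided into 3 groups by mean CPM, the 94 distal genes of lowest level had a median of -0.37, the 94 of middle level -0.57 and the 93 of highest level -0.53. By strand the medians were -0.51 for 135 genes on the plus strand and -0.47 for 146 on the minus strand. Against P2 the same 3 groups were at -0.66, -0.58 and -0.66 at P10 SFM and at -0.43, -0.36 and -0.39 at P10 SCM, so their order depended on the measure.

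Near the 5 CPM threshold the P10 differences were mixed. Just inside it were Nudt13 (mean 5.04 CPM), Dok2 (5.24 CPM) and Ogdhl (5.42 CPM), with P10 differences of 0.69, -1.13 and -0.01. Just outside were Smim4 (4.59 CPM), Gch1 (3.69 CPM) and Cryl1 (3.67 CPM), with -0.22, -0.56 and -0.78. The first gene in order, Gm3002, belongs to a cluster of near-identical gene models, so its counts are uncertain. The last, Tmtc4 (chr14:123318197-123382483), was at 7.38 and 15.8 TPM at P10 SFM and SCM, against 15.9, 12.7, 10.5 and 12.1 TPM at P2, P4 and P25 SFM and SCM. Members were unevenly spaced: no member lay in the 11488447 bases between Tdrd3 and Mzt1, nor in the 6787146 bases between Gm10845 and Diap3.

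Exon GC content was similar in both stretches, with a median of 47.5% in proximal, 48.8% in distal and 50.5% in the other autosomal genes. Median exon length was 3557 bases proximal, 3158 distal and 2966 elsewhere. Corrected for GC content, an alternative added after the values were seen, the chromosome shift was -0.55 at P10 SFM and -0.36 at P10 SCM. The 200 bases upstream of each gene's outermost start were compared as well, since neighbouring genes that move together might share sequence there. A GC box (GGGCGG on either strand) was in 64.5% of proximal, 58.4% of distal and 61.7% of other autosomal upstream windows. The CCAAT box (CCAAT on either strand) was in 30.6%, 32.7% and 32.3%, and the TATA box (TATAAA on either strand) in 0%, 3.56% and 4.15%. Median GC content was 61.8%, 62.5% and 62.5%. Both stretches lay close to the rest of the genome in these features, apart from the absent TATA box among 62 proximal windows, and within the distal stretch the GC box was in 55.5% of the 128 genes with both P10 libraries below and in 60.8% of the other 153.

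The upstream windows of genes beside the fitted split are shown, without a claim that the step lies in them. They were read from the mm9 genome 5′ to 3′ on each gene's strand, with GC box matches in capitals. The genes are the nearest members on each side whose window overlaps no exon of a chromosome 14 entry. D14Abb1e (plus strand) starts after chr14:28241833-28242032, Ccdc66 (minus strand) after chr14:28321647-28321846, and Selk (plus strand) after chr14:30781366-30781565.
D14Abb1e: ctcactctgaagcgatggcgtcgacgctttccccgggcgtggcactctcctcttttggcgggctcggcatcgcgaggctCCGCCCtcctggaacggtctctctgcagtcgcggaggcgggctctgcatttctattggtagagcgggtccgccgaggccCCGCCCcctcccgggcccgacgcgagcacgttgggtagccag
Ccdc66: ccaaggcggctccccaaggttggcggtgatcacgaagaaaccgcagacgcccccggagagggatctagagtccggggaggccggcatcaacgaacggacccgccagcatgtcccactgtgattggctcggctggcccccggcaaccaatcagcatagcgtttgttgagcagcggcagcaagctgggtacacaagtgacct
Selk: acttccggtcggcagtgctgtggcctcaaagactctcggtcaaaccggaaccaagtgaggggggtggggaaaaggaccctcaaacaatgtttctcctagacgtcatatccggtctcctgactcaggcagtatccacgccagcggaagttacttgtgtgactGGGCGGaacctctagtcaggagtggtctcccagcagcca
The D14Abb1e window held 2 GC boxes, 1 CCAAT box and 24 CpG dinucleotides, that of Ccdc66 no GC box, 2 CCAAT boxes and 15 CpG, and that of Selk 1 GC box, no CCAAT box and 9 CpG. A match is a description of letters only.

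The function lists were written from general knowledge and follow the roles of the genes. The proteasome degrades ubiquitin-tagged proteins, and 17 of 17 listed genes of this system were members, 12 of them distal. The median P10 difference of those 12 was -0.57, beside -0.49 for all distal genes. Of the 12, 6 had both P10 libraries below, where 45.6% of distal genes and 9.56% of all genes did. Nedd8, a ubiquitin-like modifier of cullin ligases, was the lowest (-1.05) and the most abundant, at 169 TPM at P10 SFM and 267 in SCM against 412 at P2, 393 at P4, 425 at P25 SFM and 398 at P25 SCM. Psmb5, a catalytic subunit of the proteasome core, was at 138 and 185 TPM at P10, against 251, 269, 262 and 247 TPM in that order. Psmc6, an ATPase of the proteasome's regulatory particle, was at 168 and 200 TPM at P10, with the other 4 from 231 to 308 TPM. The highest of the list was the proximal Usp54, a ubiquitin-specific protease relative (0.42). It was at 17.7 TPM at P10 SFM and 47.0 in SCM, against 30.3 at P2, 24.2 at P4, 11.5 at P25 SFM and 17.7 at P25 SCM. Its high value thus came from P10 SCM. The distal genes of this system thus lay near the centre of the distal stretch.

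Of 21 listed ribosome and RNA genes 19 were members, 14 of them distal with a median of -0.62, and 10 of the 19 had both P10 libraries below. Over all genes this share was 9.56%, and over distal genes 45.6%. The most abundant members of the list did not share the lower level. Tpt1, the translationally controlled tumor protein, was the most abundant of all 343 genes and distal, and was at 5582 and 6361 TPM at P10, against 5235 at P2, 5114 at P4, 6562 at P25 SFM and 7810 at P25 SCM. Rps24, a proximal ribosomal protein gene, was at 3428 and 2462 TPM at P10, against 2561, 2918, 3086 and 2803 TPM. Their P10 differences were -0.16 and -0.09. The lowest was Dis3, a catalytic subunit of the RNA exosome (-1.09), at 16.5 and 25.2 TPM at P10 against 27.3, 37.0, 45.3 and 57.2 TPM. The highest was Polr3a, the largest subunit of RNA polymerase III, in the proximal stretch (0.13).

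Cell division and DNA genes had the lowest values of the lists. All 22 were members, 20 of them distal, with a distal median of -1.09. Wdhd1, a replisome component, had the lowest difference of the list (-1.80), at 3.75 TPM at P10 SFM and 10.1 in SCM, against 10.2 at P2, 20.4 at P4, 26.2 at P25 SFM and 34.3 at P25 SCM. At P2 and P10 SCM its levels thus nearly met. Sugt1, a kinetochore and chaperone factor and the most abundant distal gene of the list by mean TPM, was at 48.4 and 76.8 TPM at P10 against 110, 73.5, 91.5 and 95.8 TPM. The proximal Top2b, a DNA topoisomerase not tied to division, was the highest (0.34), with 112 and 100 TPM at P10 and the other 4 from 64.9 to 94.0 TPM.

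Cell division genes elsewhere in the genome were compared. The 10 such genes, picked after the values were seen, were Mki67, Top2a, Ccnb1, Cdk1, Aurkb, Plk1, Bub1, Mcm2, Mcm5 and Pcna. Their median P10 difference was -0.95 and all 10 were negative, beside a median of -1.09 for the 20 distal genes of the list. Of those 20 distal genes 10 had both P10 libraries below the other 4, near the 45.6% of all distal genes. Of the 10 genes on other chromosomes 0 did, where 9.56% of all genes did. So few genes cannot be told apart from that share. The summed level of these 10 genes was 858 TPM at P2, 1397 at P4, 635 at P10 SFM, 1126 at P10 SCM, 1964 at P25 SFM and 2351 at P25 SCM. P10 SFM was thus the lowest and P25 the highest, and P10 SCM stood above P2. Without the cell division and DNA list, the other 261 distal genes had a median P10 difference of -0.46. Both P10 libraries were below for 118 of them (45.2%), where 9.56% of all genes were so placed. The part of cell division in the remaining shift was not tested.

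The secretory pathway list had 17 of 18 genes as members, 16 distal with a median of -0.53, and 9 with both P10 libraries below. The share with both below was 9.56% over all genes and 45.6% over distal genes. Spcs1, a subunit of the signal peptidase complex, was at 113 and 159 TPM at P10 against 251 at P2, 221 at P4, 202 at P25 SFM and 213 at P25 SCM. Dad1, given above, was the lowest. Itm2b, an abundant membrane protein, was at 481 and 610 TPM at P10, within the range of 335 to 596 TPM of the others apart from P10 SCM, and Ero1l, the oxidase that drives disulfide formation in the endoplasmic reticulum, was the highest (0.15). Distal genes of this pathway therefore included both lower and unshifted members.

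The mitochondrion list had 16 of 16 as members, 12 distal with a median of -0.18, beside -0.49 for all distal genes. Both P10 libraries were below for 3 of these 12, where 45.6% of distal genes and 9.56% of all genes were so placed. The difference of this list from the distal stretch was not tested. Timm23, a channel of the inner membrane translocase, was the lowest (-0.84), at 138 and 171 TPM at P10 against 224, 276, 253 and 263 TPM. Vdac2, a proximal pore of the outer membrane, was at 223 and 289 TPM at P10, and the others ranged from 265 to 349 TPM. Pck2, a mitochondrial enzyme of gluconeogenesis, was the highest (0.53) because of P10 SFM, at 85.3 TPM beside 28.9 in SCM and 28.7 to 35.2 TPM in the other 4.

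Of 20 listed genes of epithelial junctions, matrix and the cornified envelope 15 were members, with a median of -0.34, and of 23 signalling and transcription genes 15 were members, with a median of -0.39. Both P10 libraries were below for 2 and 4 of these, where 9.56% of all genes and 45.6% of distal genes were so placed. Fermt2, a kindlin that activates integrins, was the lowest of the first list (-1.48), at 9.12 and 19.6 TPM at P10 against 74.2 at P2, 33.5 at P4, 22.3 at P25 SFM and 27.6 at P25 SCM. Its P25 levels did not return to that of P2. Dlg5, a polarity scaffold in the proximal stretch, was the highest (0.38). Hr, a nuclear corepressor of hair follicles, was the lowest of the second list (-0.99) because of high values at P25: 86.5 TPM in SFM and 130 in SCM, against 27.9 and 50.5 at P10. Nr1d2, a circadian repressor in the proximal stretch, was the highest (0.99), at 37.2 and 36.3 TPM at P10 against 11.6 to 19.5 TPM. Prkcd, a protein kinase C, and Tsc22d1, a leucine zipper regulator, were at 46.4 and 70.4 TPM at P10 SFM and at 77.4 and 104 TPM at P10 SCM. In the other mSGc libraries Prkcd ranged from 61.0 to 96.8 TPM, so its P10 SCM value lay within their range.

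In the other windows the most abundant genes covered many functions. Rpl15, a ribosomal protein gene in the first window, was at 1348 and 1069 TPM at P10 and between 978 and 1293 TPM in the other mSGc libraries. In the second window 2700060E02Rik was at 307 and 282 TPM at P10 and between 212 and 252 TPM in the others. Neither of these proximal leaders thus had both P10 libraries below the others, though Rpl15 at P10 SCM lay under all of them but P2. Distally, Tkt, the transketolase of the pentose phosphate pathway, was at 232 and 237 TPM at P10 and 256 TPM at P2, but 438 at P4, 454 at P25 SFM and 425 at P25 SCM. N6amt2, a lysine methyltransferase, was at 25.2 and 50.5 TPM at P10, and the others ranged from 57.1 to 83.4 TPM. Uchl3, a ubiquitin hydrolase, was at 61.7 and 85.1 TPM at P10 against 104 to 148 TPM. Each of these distal leaders had both P10 libraries below. Ipo5, a nuclear import receptor, was at 120 TPM in both P10 libraries and between 130 and 205 TPM in the others, while Clu, a secreted chaperone, was dominated by P2 at 676 TPM and stood at 95.5 and 106 TPM at P10 against 123, 33.0 and 84.4 TPM at P4 and P25 SFM and SCM.

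Medium was not part of the rule and was compared within mSGc. At P10, SCM stood above SFM by 0.22 over the chromosome in log2(CPM + 1), relative to other autosomal genes, by 0.08 in the proximal and by 0.24 in the distal stretch. At P25 the values were 0.06, -0.01 and 0.07. In windows the P10 value was above 0 in 17 of 17, from 0.00 to 0.49, and the P25 value in 12 of 17, from -0.23 to 0.29. The distal stretch at P10 was therefore less low in SCM than in SFM, with 1 library on each side of the difference. In edgeR's quasi-likelihood test under Benjamini-Hochberg adjustment, with passage stage as a covariate, 0 of 343 genes were called higher in SCM and 0 lower, where 0% of 12451 genes tested were called higher and 0% lower. At an unadjusted p under 0.05, edgeR had 21 of the 343 higher and 7 lower, beside 613 and 491 of all genes. DESeq2 called 9 of the 343 higher and 0 lower, where 1.68% of all genes were called higher and 0.747% lower, with 21 higher and 9 lower at an unadjusted p under 0.05, beside 4.90% and 3.83% of all genes.

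The gene with the lowest adjusted p in several of these settings was Lgals3, galectin-3, a sugar-binding protein of epithelia and the most abundant of the seventh window. It was at 71.1 TPM at P10 SFM and 411 in SCM, at 32.1 TPM at P25 SFM and 268 in SCM, and at 186 and 231 TPM at P2 and P4. SCM thus stood above SFM at both passages, with the early libraries between. Its log2 fold change for SCM against SFM was 2.64 (SE 0.28) with an adjusted p of 0.081 in edgeR's quasi-likelihood test under Benjamini-Hochberg adjustment. It was called higher with P2 left out and with P4 left out, where it was the 1 gene called of this chromosome, and with P10 and P25 only, together with Rnase4, a secreted ribonuclease. Gjb2, the gap junction protein connexin 26, was at 0.724 TPM at P10 SFM and 27.0 in SCM, and at 1.96 and 4.77 TPM at P25. These genes were named after their values were seen.

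The comparisons with IMOK ask how the line differs from another oral epithelial line at each stage. They share the same 3 IMOK libraries, and line, medium and experiment cannot be told apart in them. The study gives the IMOK passage as that of the mid libraries, so passage differs as well in the early and late comparisons. All 6 mSGc libraries were used by the rule, P10 as the low side and P2, P4 and P25 as the other, so none of the 3 comparisons is free of the selection. All 343 genes passed the filter in each comparison. Relative to P2 the chromosome shift was -0.37, -0.58 and -0.51 in IMOK replicates 1 to 3, and in windows it ran from -0.87 to -0.14, so that IMOK was below P2 in all 17 windows, proximal ones included. The proximal stretch stood at -0.50, -0.70 and -0.67 and the distal stretch at -0.35, -0.54 and -0.43. Other autosomes ran from -0.57 (chromosome 13) to 0.68 (chromosome 19) in replicate 1, from -0.37 (chromosome 12) to 0.61 (chromosome 19) in replicate 2 and from -0.33 (chromosome 12) to 0.58 (chromosome 5) in replicate 3. In replicates 2 and 3 none of them was as low as chromosome 14.

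Early mSGc had 26 of 343 genes higher than IMOK and 3 lower at an adjusted p under 0.05 in edgeR's quasi-likelihood test, where 3.51% of 13123 genes were called higher and 2.71% lower. The median log2 fold change was 0.48 over the 343 genes and 0.00 over all genes. It was 0.61 in the proximal and 0.45 in the distal stretch. Late mSGc had 32 higher and 9 lower, where 3.10% of 12776 genes were called higher and 3.89% lower, with medians of 0.53 proximal and 0.56 distal beside -0.01 over all genes. Mid mSGc had 11 higher and 9 lower, where 2.34% of 13018 genes were called higher and 1.87% lower, with medians of 0.63 proximal and -0.02 distal beside -0.01 over all genes. The chromosome and its split were chosen on the P10 values set against those of P2, P4 and P25. The counts and medians of all 3 stages therefore only describe what was chosen, and nothing is read from 1 stage beside another. The same holds for the calls and p-values of single genes below, at every stage. The difference between the stages was not tested.

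A mean over both lines admits genes through 1 line alone, which was counted after the values were seen. Of the 343 genes 9 averaged under 5 CPM over mSGc libraries, among them Gng2 (2.49 CPM), Sncg (4.08 CPM), Ndrg2 (4.39 CPM) and Dok2 (1.18 CPM), and 7 averaged under 5 CPM over IMOK libraries, among them Rnf219 (0.112 CPM) and Gjb2 (0.218 CPM). Those 9 made up 2, 4 and 4 of the genes called lower in early, mid and late mSGc, and those 7 made up 4, 3 and 3 of the genes called higher. The counts of called genes thus rest in part on how members were chosen, whereas the tests were run over all genes that pass edgeR's own filter. Calls of the genes admitted through 1 line are given below as descriptions only.

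These counts depended on single libraries. For early mSGc they were 0 higher and 0 lower without P2 or without P4 (the remaining library being assumed to vary like IMOK, with 65 higher and 12 lower, and 76 and 11, at an unadjusted p under 0.05 in edgeR, beside 7.99% and 7.26%, and 9.53% and 6.93% of all genes), 100 and 7 without IMOK replicate 1, 4 and 1 without replicate 2, and 7 and 1 without replicate 3. For mid mSGc they were 0 and 0 without either P10 library (37 and 20 without P10 SFM, and 31 and 31 without P10 SCM, at an unadjusted p under 0.05, beside 9.18% and 7.92%, and 8.29% and 7.71% of all genes), 53 and 26 without IMOK replicate 1, 1 and 2 without replicate 2, and 0 and 2 without replicate 3. For late mSGc they were 0 and 0 without either P25 library (90 and 16 without P25 SFM, and 72 and 16 without P25 SCM, at an unadjusted p under 0.05, beside 6.78% and 9.32%, and 7.41% and 8.59% of all genes), 135 and 15 without IMOK replicate 1, 6 and 6 without replicate 2, and 8 and 6 without replicate 3. The calls over all genes moved in the same way. Without IMOK replicates 1, 2 and 3 in turn, 13.4%, 0.418% and 0.845% of all genes were called higher and 11.6%, 0.302% and 0.745% lower for early, 14%, 0.157% and 0.281% higher and 13.1%, 0.126% and 0.258% lower for mid, and 12.5%, 0.578% and 1.15% higher and 13.8%, 1.08% and 2.34% lower for late mSGc. DESeq2 called 73 and 9, 30 and 23, and 82 and 15 for early, mid and late, where 8.26% and 8.55%, 8.52% and 8.62%, and 7.22% and 10.5% of all genes were called higher and lower, so that the mid count of higher genes was near the share over all genes. Without TMM factors, which lowered the median of all genes by the amounts that turn 0.00 into -0.15 (early), -0.01 into -0.10 (mid) and -0.01 into -0.20 (late), the calls were 14 and 3, 4 and 8, and 16 and 9, beside 2.62% and 2.99%, 1.52% and 1.65%, and 2.14% and 4.55% of all genes. The share of higher genes among called genes then went from 55.0% to 33.3% for mid and from 78.0% to 64.0% for late mSGc.

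Among genes called higher, Rnf219, a RING finger protein, was near absent in IMOK, at 0.034, 0.134 and 0.036 TPM, and between 10.1 and 19.8 TPM in mSGc. Its adjusted p was 0.0061, 0.011 and 0.0042 for early, mid and late in edgeR's quasi-likelihood test under Benjamini-Hochberg adjustment. No library of either line overlapped. Rnf219 was admitted through mSGc, at 0.112 CPM over IMOK libraries, so these calls are descriptions only. Trim35, a tripartite motif ubiquitin ligase, was at 11.5 ± 0.700 TPM in IMOK (SD, n = 3 libraries), and at 76.5, 48.1, 51.2, 26.4, 36.3 and 45.6 TPM in the mSGc libraries from P2 to P25, SFM before SCM. Its log2 fold changes were 2.66 (SE 0.23), 1.95 (SE 0.35) and 2.17 (SE 0.20), with adjusted p of 0.0066, 0.045 and 0.0069 in edgeR's test. The mid value was 1.28 without P10 SFM and 2.39 without P10 SCM. The mid call was lost without TMM factors, at 10 counts or more in every library, and without IMOK replicate 2 or 3. Rap2a, a small GTPase near the distal end, was at 9.23, 7.87 and 7.33 TPM in IMOK and between 16.7 and 25 TPM in mSGc, lowest at P10 SFM. Its log2 fold change for mid mSGc was 1.43 (SE 0.22) with an adjusted p of 0.037 in edgeR's test. The mid call of Rap2a was lost without TMM factors and without IMOK replicate 2 or 3.

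Other genes passed the threshold at some stages only, and differences between stages were not tested. Lgals3 was called higher in early mSGc, with log2 fold changes of 2.30 (SE 0.28), 2.37 (SE 0.65) and 1.83 (SE 0.73) for early, mid and late and adjusted p of 0.014, 0.097 and 0.18 in edgeR's test, over 61.6, 56.8 and 35.7 TPM in IMOK. Gjb2 was at 29.9 TPM at P2 and 18.3 at P4, against 0.488, 0.0965 and 0 TPM in IMOK, with adjusted p of 0.019, 0.098 and 0.075 for early, mid and late in edgeR's test. Pnp, the purine nucleoside phosphorylase, was called higher in early and late mSGc, with 1.89 (SE 0.26, adjusted p 0.020) for early, 1.53 (SE 0.30, adjusted p 0.053) for mid and 2.23 (SE 0.27, adjusted p 0.012) for late in edgeR's test. The early calls of Lgals3, Gjb2 and Pnp were lost without IMOK replicate 2. Hr was called higher in late mSGc, with 0.90 (SE 0.28, adjusted p 0.12), 0.56 (SE 0.25, adjusted p 0.24) and 2.2 (SE 0.22, adjusted p 0.0077) for early, mid and late in edgeR's test. Tbc1d4, a GTPase-activating protein of glucose transporter traffic, was called higher in mid and late mSGc, with 1.99 (SE 0.42, adjusted p 0.051), 2.24 (SE 0.36, adjusted p 0.039) and 2.82 (SE 0.29, adjusted p 0.0077) in edgeR's test. The proximal Atxn7, a subunit of the SAGA complex, and Ngly1, which removes sugar chains from misfolded proteins, were called higher in mid mSGc, by 1.60 (SE 0.28, adjusted p 0.045) and 1.77 (SE 0.33, adjusted p 0.048) in edgeR's test, beside 1.18 and 0.95 for early and 0.91 and 1.15 for late. These mid calls were lost without TMM factors, at 10 counts or more in every library, and without IMOK replicate 2 or 3. That of Ngly1 was also lost with no filter. Atxn7 and Ngly1 also had both P10 libraries above the other mSGc libraries, as 10 further proximal genes did. Of the 62 proximal genes 19.4% were so placed, where 14.7% of all genes were. This placing rests on the same P10 values as the mid calls.

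Among genes called lower, Sncg, gamma-synuclein, stood at 247, 582 and 463 TPM in IMOK and at 36.7, 12.8, 2.97, 1.08, 8.84 and 3.92 TPM in mSGc from P2 to P25, SFM before SCM. Its log2 fold changes were -3.96 (SE 0.64), -7.64 (SE 0.77) and -5.63 (SE 0.66), with adjusted p of 0.028, 0.012 and 0.012 in edgeR's test. Sncg was admitted through IMOK, at 4.08 CPM over mSGc libraries, so these calls are descriptions only. Its early call was lost without IMOK replicate 2 or 3. Fam167a, whose function is little described, was called lower in mid mSGc, at 1.03 and 0.933 TPM against 27.0, 22.1 and 20.1 TPM for IMOK libraries, a log2 fold change of -4.37 (SE 0.28) and an adjusted p of 0.0077 in edgeR's test. At P2, P4 and P25 SFM it was at 19.5, 10.2 and 13.9 TPM, and at P25 SCM at 2.48 TPM. Its early and late adjusted p were 0.41 and 0.38 in edgeR's test, and the difference between stages was not tested. The rule used the P10 values, so the mid call of Fam167a only describes what was chosen. Gm3002 was at 34.8, 24.5 and 26.1 TPM in IMOK and between 2.76 and 4.92 TPM in mSGc, with the caution on near-identical copies given above. Gng2, a G protein gamma subunit, was called lower in early and late mSGc, at 2.37 and 1.40 TPM at P2 and P4 against 9.85 to 14.2 TPM in IMOK. Its log2 fold changes were -2.43 (SE 0.38), -3.39 (SE 0.65) and -3.30 (SE 0.38), with adjusted p of 0.026, 0.050 and 0.012 for early, mid and late in edgeR's test. The mid value was just over the threshold. Gng2 was likewise admitted through IMOK, at 2.49 CPM over mSGc libraries, so its calls are descriptions only. Its early call was also lost without IMOK replicate 2 or 3.

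In late mSGc, Spata13 was at 0.203 and 0.212 TPM against 18.4, 12.7 and 13.3 TPM in IMOK, with an adjusted p of 0.0028 in edgeR's test, and stood at 6.64 TPM at P2. Sorbs3, the adhesion protein vinexin, was at 0.750 and 1.11 TPM against 19.4, 14.7 and 10.9 TPM (adjusted p 0.0088 in edgeR's test), and at 19.8 TPM at P2. Ndrg2, a differentiation-related gene, was at 1.91 and 0.443 TPM against 22.0, 21.8 and 14.1 TPM (adjusted p 0.036 in edgeR's test). Dok2, an adaptor of tyrosine kinases, was at 0.754 and 0.371 TPM against 5.06, 19.9 and 24.3 TPM (adjusted p 0.049 in edgeR's test). The late log2 fold change of Ndrg2 was -3.51, but -5.15 without P25 SFM and -2.87 without P25 SCM. The late calls of Ndrg2 and Dok2 were lost without IMOK replicate 2 or 3. Spata13, Ndrg2 and Dok2 were also called lower in mid mSGc, with log2 fold changes of -4.61 (SE 0.84), -2.63 (SE 0.43) and -6.45 (SE 1.16) and adjusted p of 0.046, 0.039 and 0.045 in edgeR's test. The mid values depended on single libraries: Spata13 was at -3.84 without P10 SFM and -7.13 without P10 SCM, and Dok2 at -7.33 and -5.79. The rule used the P10 values, so the mid calls only describe what was chosen. Ndrg2 and Dok2 were admitted through IMOK, at 4.39 and 1.18 CPM over mSGc libraries, so all of their calls are descriptions only. For Spata13, Sorbs3, Ndrg2 and Dok2 the P2 level was the highest of the mSGc libraries.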

How the data were processed

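RNA-seq libraries of mSGc and IMOK monolayers were analysed from raw counts per gene that the authors deposited in 2 tables; libraries of other lines and tissues were not used here. According to the submitters' processing notes, reads were aligned to mm9 with TopHat2 2.1.1 and Bowtie2 2.2.6 and counted with featureCounts 1.5.1. The annotation and strandedness are not given in the sources used here, so 70 members whose span overlaps another entry are uncertain. From the counts and deposited gene lengths, CPM and TPM were computed. Members and lists were chosen with earlier results of these data known. Shifts are medians of differences in log2(CPM + 1), untested. Comparisons used edgeR 4.0.16 (quasi-likelihood, TMM, default filter, Benjamini-Hochberg at 0.05 over all genes tested) in R 4.3.3, with DESeq2 1.42.0 as an alternative, and Python 3.11.15 for the rest. Standard errors are the absolute log2 fold change over the root of F. Genes named are the first, last and threshold members, the most abundant of each window, of each list the 2 most abundant and the lowest and highest P10 difference, the 5 lowest of the lowest window, and up to 5 per comparison and direction below an adjusted p of 0.05 whose groups do not overlap and that reach 10 TPM in 2 or more libraries. One gene that met these rules is not reported here. Scripts were tested on simulated data. Alternatives were another pseudocount, other CPM minimums, TMM-scaled CPM, means, P4 as reference, other windows, no TMM, no filter, a minimum of 10 counts, and leaving out each library. Corrections for exon GC content and length, thinning to equal depth, leaving out overlapping members, and leaving libraries out of the non-overlap counts were chosen after seeing the data. Total counts of 6237884 to 18444963 per library set the counting precision.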

Additional observations from a re-analysis of the deposited data

Results flagged for a closer look

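The proximal stretch differed in sign between passages in the contrast of SCM minus SFM: it was 0.0784 at P10 and -0.00913 at P25, as medians over 62 genes in log2(CPM + 1) relative to the other autosomal genes. Each value compares 1 library with 1 other, both lie close to 0, and the difference between the passages was not tested.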

How the results depend on the processing

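The P10 shifts kept their direction under all 10 alternatives each, and 9 windows lower in P10 alone changed by less than 1.5 times under 4 alternatives. The shift at P25 SFM became 0.0601 against P4 and 0.0415 after the GC correction, the latter chosen after seeing the data, and that at P25 SCM became -0.00912 with means over genes. Genes with both P10 libraries above the others numbered 9 at a mean of at least 20 CPM. They numbered 17 to 44 when 1 library was left out, where 16.1% to 27.2% of all genes were above. Those with both below then numbered 144 to 201, where 10.6% to 22.1% of all genes were below. Members called higher in early, mid and late mSGc numbered 73, 30 and 82 with DESeq2, 14, 4 and 16 without TMM factors, and 12, 3 and 17 at 10 counts or more in every library, where 1.76%, 1.42% and 2.12% of all genes were called. Members called lower numbered 9, 23 and 15 with DESeq2, where 8.55%, 8.62% and 10.5% of all genes were called. They numbered 5 in late mSGc at 10 counts or more, where 2.37% of all genes were called. Leaving out 1 library gave 0 to 100 higher and 0 to 7 lower for early, 0 to 53 and 0 to 26 for mid, and 0 to 135 and 0 to 15 for late mSGc. For SCM against SFM, DESeq2 called 9 higher (1.68% of all genes) and no filter 11 higher and 3 lower (1.84% and 0.896% of all genes). P10 and P25 only gave 2 higher (0.754% of all genes), and leaving out 1 SFM library 0 to 1 higher (0% to 0.671% of all genes). The cause of these changes was not tested. For the comparisons with IMOK no paired analysis was possible because the labels number the IMOK libraries only. SCM and SFM pair by passage, and their main fit has passage stage as a covariate. Of 28 calls of named genes, the direction reversed in 0 of 241 refits, and 91 of these lost the threshold.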
